A study of Mus musculus with 32 samples.

Results

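A set of 10 genes that mark the mural cells of blood vessels, pericytes and vascular smooth muscle, was followed in a mouse sympathetic ganglion and in sphere cultures of TH-MYCN mice. The set was chosen by gene symbol, 4 pericyte genes (Rgs5, Pdgfrb, Mcam, Notch3) and 6 smooth muscle genes (Acta2, Actg2, Myh11, Tagln, Cnn1, Des), of 20660 symbols on the array. It was read by 11 probes, 2 of them for Mcam and 1 for each other gene. RNA of 4 groups was measured on 32 one-colour arrays, all of strain background 129+Ter/SvJcl and from 3-week-old mice. The first was spheres of TH-MYCN hemizygote (TH-MYCN+/-) mice passaged 5 times, 4 cultures on 2 arrays each, which were averaged. The second was primary spheres of TH-MYCN hemizygote mice cultured for 8 days, 8 cultures. The third was 8 samples of superior mesenteric ganglion (SMG), a prevertebral ganglion of the sympathetic nervous system, from TH-MYCN hemizygote mice, and the last was 8 SMG samples from wild-type (WT) mice. TH-MYCN mice carry a MYCN transgene driven by a tyrosine hydroxylase promoter, which is active in sympathetic cells, so that the mural genes were read in a tissue whose neuroblasts, and not its vessels, are the intended site of the transgene. The sources used here do not say how many animals gave a sample, nor which tissue the spheres were grown from. TH-MYCN SMG and WT SMG shared slides 1 and 2, and both kinds of sphere shared slides 3 and 4.

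Pericytes lie on the outside of capillary endothelium and are recruited by platelet-derived growth factor B from endothelial cells acting on the receptor encoded by Pdgfrb. Smooth muscle cells of larger vessels build a contractile apparatus of smooth muscle actins, the myosin heavy chain Myh11 and the actin-binding proteins Tagln and Cnn1, under serum response factor and its partner myocardin. Several of these genes, among them Acta2 and Tagln, can also be made by fibroblasts and other cells under stress or in culture, so they are less strict markers than Myh11.

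Levels are given as the log2 of the processed spot signal minus the log2 of the array's 75th percentile, so that 0 is as bright as that percentile. Levels of different probes are not comparable, and only the order of groups within a probe is. A difference between groups is a log2 difference from limma with its standard error (SE), and genes with an adjusted p under 0.05 (Benjamini-Hochberg over all genes tested) were called. The 75th percentile of raw signal was 323 to 539 on passaged sphere arrays, 464 to 564 on primary sphere arrays, 840 to 1358 on TH-MYCN SMG arrays and 523 to 989 on WT SMG arrays. Well above background were 49.0% to 53.9% of the spots in passaged spheres, 57.0% to 59.7% in primary spheres, 59.1% to 64.1% in TH-MYCN SMG and 60.4% to 65.7% in WT SMG, so passaged spheres are where a dim gene is hardest to measure. Of 9 sympathetic markers, 8 or 9 were above background in every sphere sample and all 9 in every SMG.

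**Figure D1:**
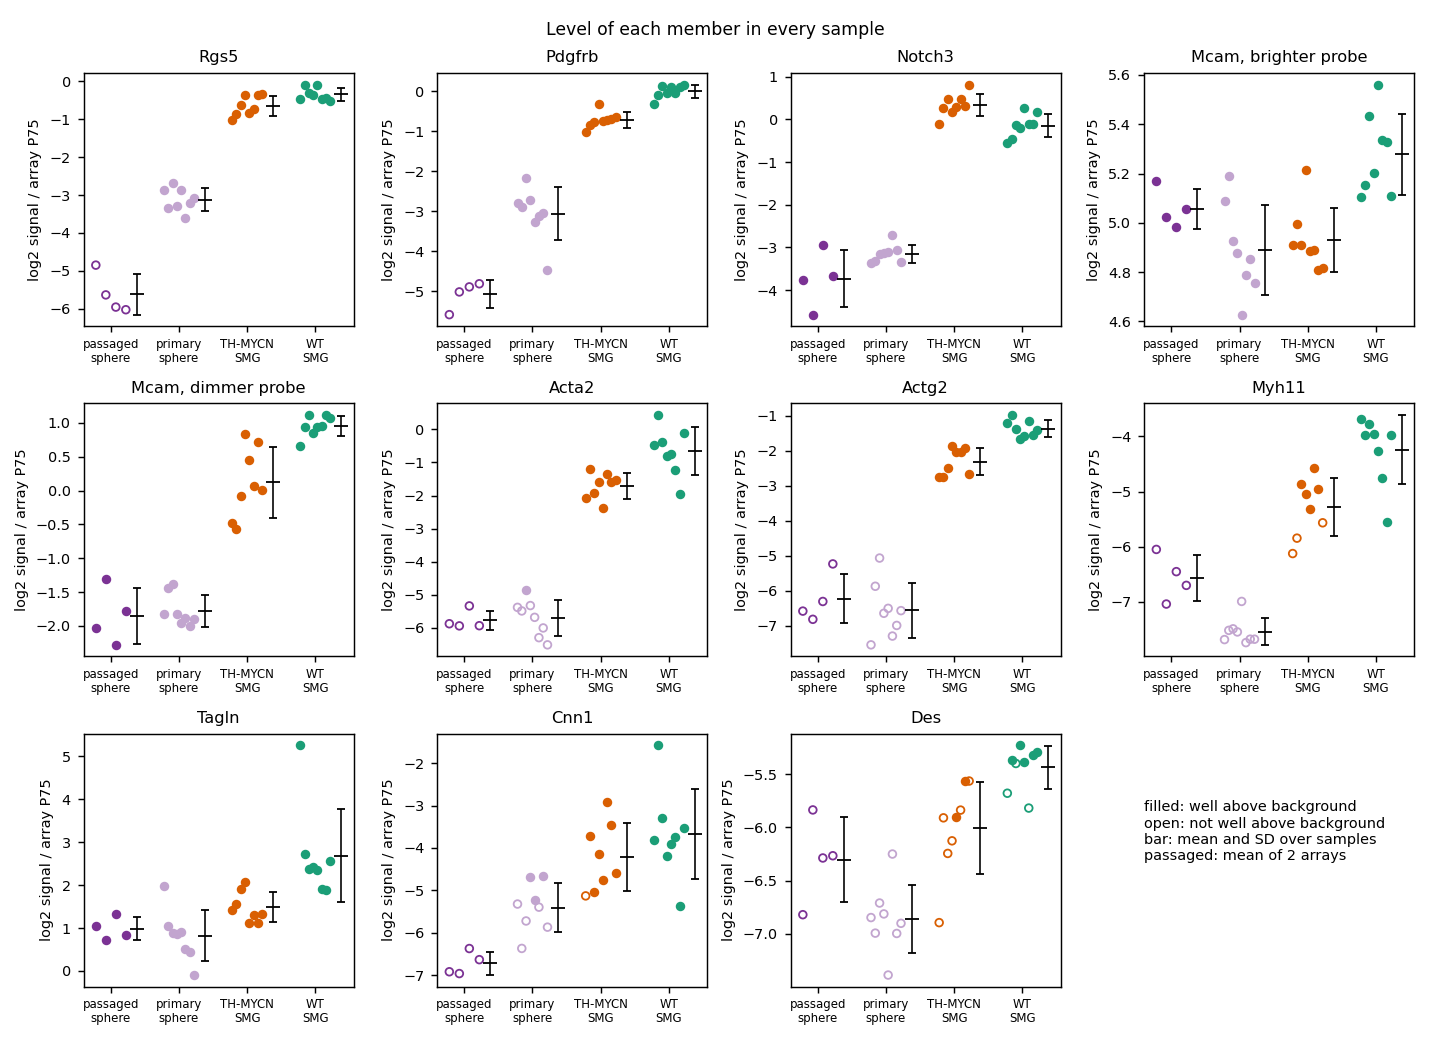
Level of each member in every sample (vertical axis, log2 signal relative to the array's 75th percentile, each panel with its own scale), for passaged spheres (mean of 2 arrays), primary spheres, TH-MYCN SMG and WT SMG. Filled points were well above background, open points were not, and bars give the mean and SD. Rgs5 and Pdgfrb step down in each kind of sphere, Actg2 and Acta2 lie near background in both, and Tagln and the brighter Mcam probe stay well above background in all 4 groups.

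TH-MYCN SMG was first set against WT SMG, which asks how the mural genes stand in a sympathetic ganglion with the transgene. All 10 members passed the filter on dim probes in this comparison. Of these, 8 were called lower in TH-MYCN SMG, Notch3 was called higher and Cnn1 was not called. The 8 include Des, above background in 2 of 8 TH-MYCN SMG and 5 of 8 WT SMG. Des met the filter only through the WT SMG, where it is high, so its call is a description and no support. Over all 15825 genes tested, 43.8% were called lower and 21.9% higher (65.7% in all), so that being called was common here and the 8 of 10 stand against a background of 43.8%. The median difference was -0.64 over the 10 members, -0.32 over the 4 pericyte genes and -0.99 over the 6 smooth muscle genes, beside -0.22 over all genes tested. These are bulk samples, in which fewer cells of a type and less RNA per cell cannot be told apart.

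Among the pericyte genes, Pdgfrb, the receptor through which pericytes are recruited, was at -1.02 to -0.31 (median -0.73) in TH-MYCN SMG and at -0.33 to 0.16 (median 0.035) in WT SMG. The groups met only at TH-MYCN SMG 4 and WT SMG 1. Pdgfrb fell by 0.72 (SE 0.097, adjusted p = 1.48e-05, limma), and it was called in each fit without 1 sample and within each slide (-0.65 on slide 1 and -0.78 on slide 2).

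Rgs5 encodes a GTPase-activating protein that damps G-protein signalling and is among the most used pericyte markers. It was at -1.01 to -0.33 (median -0.68) in TH-MYCN SMG and at -0.52 to -0.088 (median -0.40) in WT SMG, with wide overlap. Its fall of 0.30 (SE 0.11, limma adjusted p = 0.0271) was close to the -0.22 of the median gene. The call was lost within slide 1 (-0.41, adjusted p = 0.0618), within slide 2 (-0.18, adjusted p = 0.320), in a joint fit of all 4 groups (adjusted p = 0.0770) and in 5 of the 16 fits without 1 sample.

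Mcam, a cell adhesion molecule of pericytes, smooth muscle and endothelium, had its brighter probe at 4.81 to 5.21 (median 4.90) in TH-MYCN SMG and at 5.10 to 5.56 (median 5.26) in WT SMG. The brighter probe fell by 0.35 (SE 0.083, limma adjusted p = 0.00165), and the call was lost within slide 1 (-0.22, adjusted p = 0.182). The dimmer probe was at -0.57 to 0.84 (median 0.044) in TH-MYCN SMG and at 0.67 to 1.12 (median 0.95) in WT SMG. It fell by 0.84 (SE 0.18, adjusted p = 0.000756 in a limma fit of all probes), more than the brighter one on the same arrays.

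Notch3, the Notch receptor of mural cells, went the other way. It was at -0.096 to 0.81 (median 0.31) in TH-MYCN SMG and at -0.54 to 0.26 (median -0.12) in WT SMG, with overlap. Notch3 rose by 0.48 (SE 0.13, limma adjusted p = 0.00435), and was called within slide 1 (0.55), within slide 2 (0.42) and in each fit without 1 sample.

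Other Notch genes were read beside Notch3, from the list of family relatives. Jag1, a Notch ligand of endothelium and smooth muscle, was at -0.26 to 0.49 in TH-MYCN SMG and at -0.83 to -0.082 in WT SMG, and rose by 0.63 (limma adjusted p = 0.000557). Dll4, the ligand of arterial and tip endothelium, rose by 0.64 (limma adjusted p = 0.000991) and the endothelial receptor Notch4 by 0.39 (adjusted p = 0.00154). Notch2, the second receptor of smooth muscle, fell by 0.52 (limma adjusted p = 0.00119). A probe of Notch1 had means of -5.99 in TH-MYCN SMG and -5.39 in WT SMG, above background on 3 of 8 and 4 of 8 arrays. Heyl, a Notch target of mural cells, was the 1 of 16 other pericyte genes called higher (0.63, limma adjusted p = 0.0421). Heyl is named after its values were seen, and at -1.93 to -0.20 in TH-MYCN SMG against -2.06 to -0.77 in WT SMG its groups overlapped.

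Of the smooth muscle genes, Actg2, the gamma actin of visceral and vascular smooth muscle, was the 1 member whose groups did not overlap, which was true of 12.4% of all genes tested in the lower direction and 9.16% in the higher. It was at -2.74 to -1.85 (median -2.27) in TH-MYCN SMG and at -1.68 to -0.98 (median -1.39) in WT SMG, and fell by 0.94 (SE 0.15, limma adjusted p = 7.83e-05). The fall was called within slide 1 (-1.15) and within slide 2 (-0.73).

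Acta2, the alpha smooth muscle actin, was at -2.38 to -1.19 (median -1.59) in TH-MYCN SMG and at -1.95 to 0.44 (median -0.60) in WT SMG. WT SMG 7, at -1.95, and WT SMG 6, at -1.24, lay inside the TH-MYCN range, and the other WT ganglia lay above it. Acta2 fell by 1.04 (SE 0.27, limma adjusted p = 0.00290), with a called -1.39 on slide 1 and a -0.70 on slide 2 that was not called (limma adjusted p = 0.146).

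Myh11, the smooth muscle myosin heavy chain, was above background in 5 of 8 TH-MYCN SMG and in 8 of 8 WT SMG. Its levels were -6.12 to -4.56 (median -5.18) in TH-MYCN SMG and -5.56 to -3.68 (median -3.97) in WT SMG, where WT SMG 7 was again the lowest. Myh11 fell by 1.05 (SE 0.27, limma adjusted p = 0.00285), with a called -1.63 on slide 1 and a -0.47 on slide 2 that was not called (limma adjusted p = 0.274).

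Tagln, the actin-binding protein transgelin or SM22, was at 1.12 to 2.08 (median 1.37) in TH-MYCN SMG and at 1.88 to 5.26 (median 2.40) in WT SMG. The 5.26 belongs to WT SMG 1, and the next WT ganglion was at 2.72. Tagln fell by 1.21 (SE 0.37, limma adjusted p = 0.00890), and by 0.84 without WT SMG 1 (adjusted p = 0.000478). On slide 1, which holds that ganglion, the difference of -1.46 missed the threshold (limma adjusted p = 0.0677), and on slide 2 Tagln fell by 0.95.

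Cnn1, the calponin of differentiated smooth muscle, spread most, with -5.13 to -2.92 (median -4.37) in TH-MYCN SMG and -5.37 to -1.57 (median -3.78) in WT SMG. The difference of -0.54 (SE 0.43, limma adjusted p = 0.272) was not called, with -1.29 on slide 1 and 0.20 on slide 2. With normexp it was called (-0.70, limma adjusted p = 0.0235). Des, the muscle intermediate filament desmin, was near the detection limit, above background in 2 of 8 TH-MYCN SMG and 5 of 8 WT SMG. It fell by 0.57 (SE 0.16, limma adjusted p = 0.00540), from signals of which most in TH-MYCN SMG were not above background, and it was not called within slide 2 (-0.27, adjusted p = 0.140). Since Des passed the filter only through the WT SMG, its call is a description and no support.

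With the slide as a block 9 members were called, as without it, among 71% of all genes. Within slide 1, 6 were called among 47.5% of all genes, and within slide 2, 5 among 61.8%, where each arm has 4 samples. The TH-MYCN SMG arrays were also shifted together by the median difference of all genes, which moves all differences by 0.22. Rgs5 (-0.076), Mcam (-0.13) and Des (-0.35) were then not called, 5 members stayed called lower and Notch3 was called higher by 0.71.

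**Figure D2:**
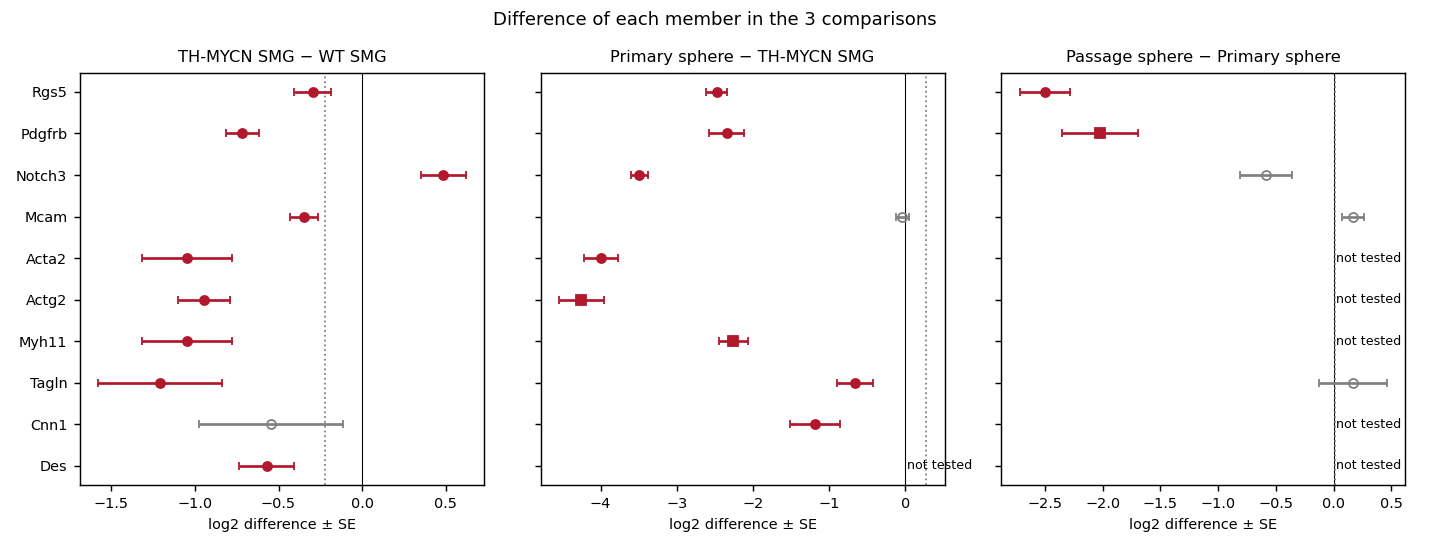
Log2 difference of each member (horizontal axis, points with SE) for TH-MYCN SMG minus WT SMG, primary sphere minus TH-MYCN SMG and passaged sphere minus primary sphere. Red filled points were called, grey open points were not, squares had no array of the upper-named group above background (only a bound holds there), and the dotted line is the median of all genes tested. Notch3 is the 1 member called higher, in TH-MYCN SMG, and Notch3, Rgs5, Pdgfrb and Acta2 lie further to the left in primary spheres than in the ganglion, whereas Tagln and Mcam do not.

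Further genes of these cells, from lists that do not hold the members, were counted in the same fit. There, 43.8% of all genes tested were called lower and 21.9% higher. Of 16 other pericyte genes, 11 were called lower and 1 higher (median -0.53). The largest differences were in Kcnj8, a potassium channel subunit of pericytes (-1.13, SE 0.19, limma adjusted p = 9.06e-05), Rgs4, a relative of Rgs5 that neurons also make (-1.04, adjusted p = 0.000372), and Cspg4, the NG2 proteoglycan of pericytes (-0.94, adjusted p = 0.00218). Of 23 other smooth muscle genes tested, 14 were called lower and 2 higher (median -0.53). Myocd, which encodes the smooth muscle coactivator myocardin, fell by 1.46 (SE 0.30, limma adjusted p = 0.000521) and was above background in 2 of 8 TH-MYCN SMG and 8 of 8 WT SMG. Myocd thus passed the filter only through the WT SMG, where it is high. Its call, which is among the 14, is a description and no support. Sncg, gamma-synuclein, which neurons also make, fell by 1.15 (limma adjusted p = 4.06e-06), and Fhl2, a LIM-domain cofactor, rose by 1.04 (limma adjusted p = 8.31e-05).

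Markers of other cell types moved in the same comparison. Called lower were 7 of 7 glial, 6 of 7 fibroblast and 5 of 8 endothelial markers, and called higher were 6 of 7 macrophage markers. Of all genes tested, 43.8% were called lower and 21.9% higher. The mean level over the fibroblast list was 3.70 to 4.02 in TH-MYCN SMG and 4.21 to 4.88 in WT SMG, and over the endothelial list -2.24 to -1.43 in TH-MYCN SMG and -1.40 to -0.88 in WT SMG. Over the glial list it was 0.80 to 1.83 in TH-MYCN SMG and 2.18 to 2.50 in WT SMG, and over the macrophage list 1.60 to 2.45 in TH-MYCN SMG and 0.88 to 1.52 in WT SMG. Of 4 erythroid markers 0 were called by limma. The part of these lists in the members' differences was not tested.

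Variation between ganglia of one group gives a further view of the members. For all 45 pairs, the group mean was subtracted from each of the 16 SMG samples and the deviations were correlated. Of these, 31 pairs had r above 0, and the median r was 0.211. One pair passed after adjustment over the 45 pairs, Acta2 with Cnn1 (Pearson r = 0.84, permutation p = 0.00041, adjusted p = 0.01845, and Spearman rho = 0.82, permutation p = 0.00022, adjusted p = 0.0099, n = 16, two-sided with 100000 permutations within groups). Within TH-MYCN SMG r was 0.74 and within WT SMG 0.90, after subtraction of the slide means it was 0.84, and without WT SMG 2 and WT SMG 7, the samples farthest from the median of Acta2, it was 0.64. The pairs Acta2 with Myh11 (r = 0.61) and Myh11 with Cnn1 (r = 0.56) did not pass (permutation, adjusted p = 0.254 for each). Cnn1 thus varied with Acta2 from ganglion to ganglion.

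**Figure D3:**
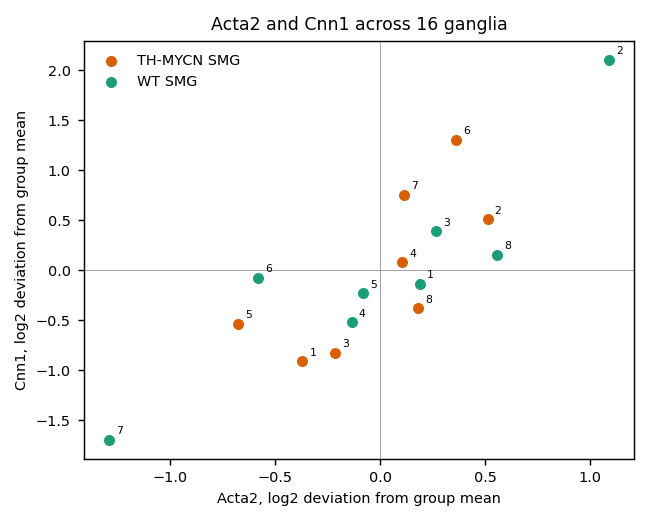
Deviation of Cnn1 (vertical axis) against that of Acta2 (horizontal axis) from the group mean, in log2, for the 8 TH-MYCN SMG and 8 WT SMG, numbered by replicate. WT SMG 2 is highest and WT SMG 7 lowest in both genes, and r over the 16 samples was 0.84, or 0.64 without those 2.

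The promoters of this pair are shown because they were the 2 members that varied together. Each sequence is the 250 bases before the transcript start that the RefSeq promoter table uses (GRCm38.p6), 5' to 3' on the gene's strand, at chr19:34255374-34255623 (minus strand) for Acta2 and chr9:22099003-22099252 (plus strand) for Cnn1. That start is not the outer end of the gene in the RefSeq gene table, so that 212 bases of the Acta2 window and 32 of the Cnn1 window lie within the annotated gene. The CArG box, the 10-base site of serum response factor, was searched as CC, 6 letters that are A or T, and GG, which reads the same on both strands. Capitals mark a box with 1 of the 6 letters other than A or T.
Acta2: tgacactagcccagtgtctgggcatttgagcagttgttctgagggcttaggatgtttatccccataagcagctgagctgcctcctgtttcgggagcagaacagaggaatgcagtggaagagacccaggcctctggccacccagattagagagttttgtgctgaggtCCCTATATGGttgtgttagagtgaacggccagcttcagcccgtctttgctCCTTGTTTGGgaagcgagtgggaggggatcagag
Cnn1: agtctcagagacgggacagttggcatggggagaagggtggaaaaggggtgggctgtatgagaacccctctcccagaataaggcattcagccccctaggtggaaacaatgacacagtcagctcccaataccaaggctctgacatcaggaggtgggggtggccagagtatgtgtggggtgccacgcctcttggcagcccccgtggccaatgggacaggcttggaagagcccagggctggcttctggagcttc
No exact box is in either window, and Acta2 holds 2 boxes with 1 other letter, the first beginning 84 and the second 34 bases before that transcript start. An exact box is in 1.47% of the 32851 windows of the promoter table, and a box with at most 1 other letter in 8.59%. Of the 10 members, 6 have a window in the table, and 0 of them hold an exact box. Of 24 other smooth muscle genes with a window, 4 hold an exact box (Srf, Myl9, Vcl and Fhl2). A match is a description of letters only, and no other stretch of these genes was searched.

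The genes whose deviations over the same 16 SMG samples were most like those of a member were ranked among 13396 genes above background in all of them. For Acta2 these were Tpm2, a beta tropomyosin (r = 0.88), Mfap5, a microfibril protein (0.87), and Ltbp1, a latent TGF-beta binding protein (0.84). Notch3 was most like Apln, which encodes the peptide apelin (r = 0.90), Larp1b (0.88) and Hspa9 (0.88). Pdgfrb had Snx3 (r = 0.91), Edem1 (0.91) and Fat1 (0.90), and Rgs5 had Tcaim (0.78), Zeb2 (0.77) and Vamp3 (0.77). Actg2 had the potassium channel Kcna1 (r = 0.92), Rnf135 (0.90) and Serpina3i (0.90), and Mcam had Rnf214 (0.90), Dcaf12 (0.90) and Blcap (0.89). For Tagln, where WT SMG 1 stands apart, the nearest were Ltc4s (r = 0.96), Ndufaf5 (0.93) and Capn11 (0.92). These values describe the highest of many correlations over arrays that share their slides.

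Primary spheres were next set against TH-MYCN SMG, which asks what of the mural genes is found after 8 days of culture. This comparison shares the TH-MYCN samples with the one above. In all, 9 members were tested, Des being left out because it was above background in 0 of 8 spheres and 2 of 8 TH-MYCN SMG. Of the 9, 8 were called lower in primary spheres and Mcam was not called. Of all 15636 genes tested, 32.9% were called lower and 50.3% higher (83.2% in all), and the median difference was -2.35 over the members against 0.27 over all genes. A gene had to be above background in 4 samples to be tested. Acta2, Actg2, Myh11 and Cnn1 met this only through the SMG, where they are high, and so had to be lower, and their calls and the count of 8 are a description and no support. Of the 5 members above background in at least 4 primary spheres (Rgs5, Pdgfrb, Notch3, Mcam and Tagln), 4 were called lower.

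Rgs5, Pdgfrb and Notch3 were still measured on all 8 primary sphere arrays. Rgs5 was at -3.59 to -2.68 (median -3.14) in primary spheres and at -1.01 to -0.33 in TH-MYCN SMG, and fell by 2.48 (SE 0.14, limma adjusted p = 4.72e-11). Pdgfrb was at -4.47 to -2.16 (median -2.98) in primary spheres, lowest in sphere 8, and at -1.02 to -0.31 in TH-MYCN SMG, and fell by 2.35 (SE 0.23, limma adjusted p = 6.17e-08). Notch3 was at -3.35 to -2.72 (median -3.14) in primary spheres and at -0.096 to 0.81 in TH-MYCN SMG, and fell by 3.49 (SE 0.12, limma adjusted p = 8.29e-14), the largest fall of the 4 pericyte genes. The groups of these 3 genes did not overlap, nor did those of Acta2, Actg2 and Myh11, and 23.3% of all genes tested were lower and 34.6% higher without overlap.

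The 2 probes of Mcam disagreed. The brighter one was at 4.63 to 5.19 (median 4.87) in primary spheres and at 4.81 to 5.21 (median 4.90) in TH-MYCN SMG, a difference of -0.040 (SE 0.083, limma adjusted p = 0.664). The dimmer one was at -2.002 to -1.38 (median -1.86) in primary spheres and at -0.57 to 0.84 in TH-MYCN SMG, and fell by 1.90 (SE 0.19, adjusted p = 8.11e-08 in a limma fit of all probes) without overlap. The brighter probe was also called lower after quantile normalization (-0.63) and with arrays shifted to the median gene (-0.31), so that whether Mcam fell depends on the probe and on the scaling. Which Mcam transcripts each probe reads was not analysed here.

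Smooth muscle actins were at or near the detection limit in primary spheres. Acta2 was above background in 1 of 8 primary spheres (sphere 3) and 8 of 8 TH-MYCN SMG, at -6.51 to -4.86 (median -5.59) in primary spheres and -2.38 to -1.19 in TH-MYCN SMG, a fitted fall of 4.00 (SE 0.22, limma adjusted p = 6.50e-11), or of 1.46 with normexp, another background correction. Its 10 spots on an array had an SD of 0.33 to 1.02 in primary spheres and of 0.068 to 0.14 in TH-MYCN SMG, so its level is loosely measured in spheres. Actg2 was above background in 0 of 8 primary spheres and 8 of 8 TH-MYCN SMG, with means of -6.56 and -2.31, which makes it at least 8.31-fold lower in primary spheres on this scale. With normexp the fitted difference of Actg2 was -1.003, less than that bound. Such a bound sets the brighter group's mean against a floor on each array of the dimmer group, which is the dimmest signal well above background there or the signal of the probe itself, whichever is higher.

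Myh11 was above background in 0 of 8 primary spheres and 5 of 8 TH-MYCN SMG, with means of -7.54 and -5.28, a bound of 1.07-fold, so that its difference was hardly measured. With normexp the sign of Myh11 turned (0.44, limma adjusted p = 0.000195). Cnn1 was above background in 3 of 8 primary spheres and 7 of 8 TH-MYCN SMG, and fell by 1.19 (SE 0.33, limma adjusted p = 0.00299), with levels of -6.37 to -4.67 in primary spheres and -5.13 to -2.92 in TH-MYCN SMG. Its sign turned too with normexp (0.30, limma adjusted p = 0.0624, not called).

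Tagln was the smooth muscle gene that stayed bright in spheres. It was at -0.095 to 1.99 (median 0.87) in primary spheres and at 1.12 to 2.08 (median 1.37) in TH-MYCN SMG, above background on every array, and fell by 0.66 (SE 0.23, limma adjusted p = 0.0140). The call was lost in a joint fit of all 4 groups. Against the 8 TH-MYCN SMG, the 4 primary spheres of slide 3 differed by -0.29 (limma adjusted p = 0.275) and the 4 of slide 4 by -1.04 (adjusted p = 0.000587), a split added after the data were seen. The mean of Tagln was 1.19 on slide 3 and 0.44 on slide 4 in primary spheres. The same passaged cultures, hybridised to both slides, had a mean of 1.55 on slide 3 and 0.42 on slide 4, and each of the 4 was higher on slide 3. The part of the slide in the difference of Tagln between primary spheres and SMG was not tested.

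**Figure D4:**
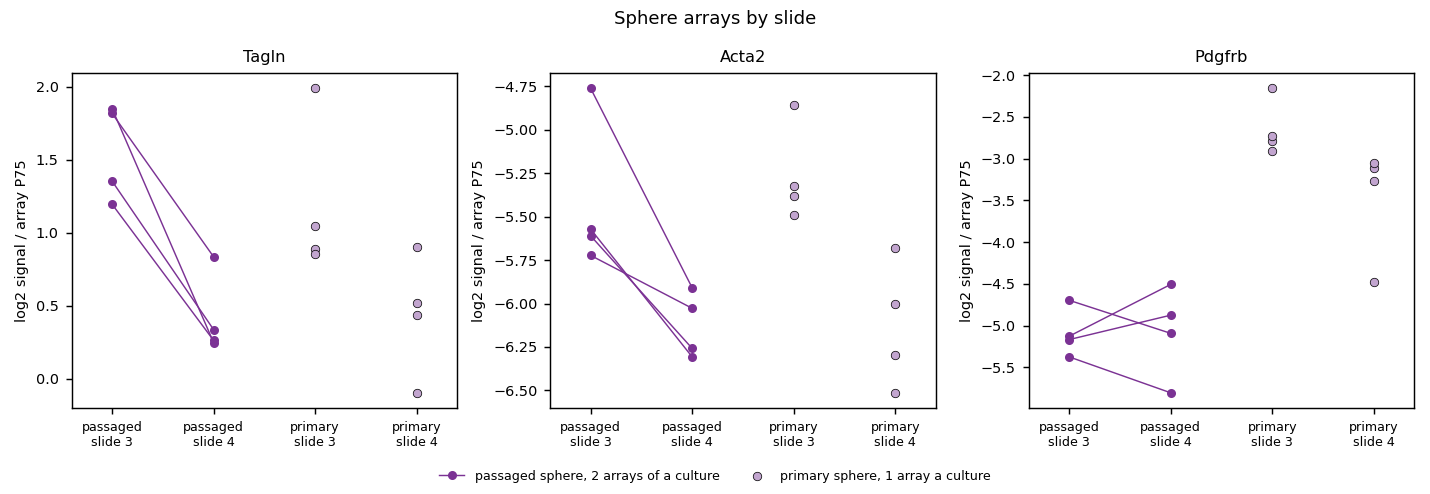
Levels of Tagln, Acta2 and Pdgfrb (vertical axes, log2 signal relative to the array's 75th percentile) on the sphere arrays of slides 3 and 4. Lines join the 2 arrays of 1 passaged culture, and each primary sphere culture has 1 point. Tagln was higher on slide 3 in 4 of 4 passaged cultures, Acta2 is at background on nearly all arrays, and Pdgfrb, at background on all passaged arrays, had primary sphere means of -2.65 on slide 3 and -3.48 on slide 4.

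Slide and group cannot be told apart between spheres and SMG, since no slide held both. With the slide as a random block 8 members were called, as without it. Against the 8 TH-MYCN SMG, the differences with the spheres of slide 3 alone were -1.93 for Pdgfrb, -2.41 for Rgs5 and -3.58 for Notch3, all called. With those of slide 4 alone they were -2.76 for Pdgfrb, -2.55 for Rgs5 and -3.40 for Notch3, all called.

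Other pericyte genes were lower in primary spheres in 14 of 16 and higher in 0 (median -2.68, or -2.32 with 3 genes at their bound). Of all genes tested, 32.9% were called lower and 50.3% higher. Pericyte genes above background in fewer than 4 primary spheres, such as Vtn and Anpep, were tested only through the SMG. The count of 14 is thus a description and no support. Vtn, the matrix protein vitronectin, was at least 66.2-fold lower. Anpep, an aminopeptidase of pericytes and other cells, fell by 5.75 (SE 0.21, limma adjusted p = 2.17e-13, above background on 1 of 8 sphere arrays), and Pdgfb, the ligand made by endothelium, by 4.32 (SE 0.17, adjusted p = 5.78e-13). The other smooth muscle genes were split, with 10 called higher and 12 lower of 23 tested (median -0.40). Synpo2, an actin-bundling protein, rose by 4.33 (SE 0.11, limma adjusted p = 1.57e-15), while the LIM protein Crip1 fell by 4.40 (SE 0.16, adjusted p = 2.43e-13) and Sncg by 4.67 (SE 0.22, adjusted p = 5.36e-12). Myocd, Lmod1 and Pln were not tested because they were too seldom above background.

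The actins as a family did not move one way. Actc1, the cardiac alpha actin and a close relative of Acta2, was above background on 8 of 8 TH-MYCN SMG arrays and on 0 of 8 WT SMG arrays, at -1.98 to 0.41 and -7.95 to -7.14, and was no less than 38.5-fold higher in TH-MYCN SMG (adjusted p = 1.95e-11, limma). Actc1 passed the filter there only through the TH-MYCN SMG, where it is high, so that call is a description and no support. It rose by a further 3.34 in primary spheres (SE 0.28, limma adjusted p = 8.62e-09), where it was at 2.59 to 3.00. In TH-MYCN SMG against WT SMG, the skeletal actin Acta1 (0.085, limma adjusted p = 0.350) and the cytoplasmic actin Actb (-0.097, adjusted p = 0.350) were not called, and the cytoplasmic actin Actg1 fell by 0.40 (adjusted p = 0.00377). In primary spheres against TH-MYCN SMG, Actb rose by 1.12 (limma adjusted p = 1.46e-10), Actg1 rose by 0.92 (adjusted p = 1.59e-08) and Acta1 fell by 0.97 (adjusted p = 2.09e-08). Over the 19 family relatives, 4 were called higher and 9 lower in TH-MYCN SMG against WT SMG, and 5 higher and 7 lower in primary spheres against TH-MYCN SMG. In the ganglion these are 21.1% and 47.4% of the relatives, near the 21.9% and 43.8% of all genes tested. In primary spheres they are 26.3% and 36.8%, beside 50.3% and 32.9% of all genes tested. Whether the actin probes separate near-identical actin transcripts was not analysed here.

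**Figure D5:**
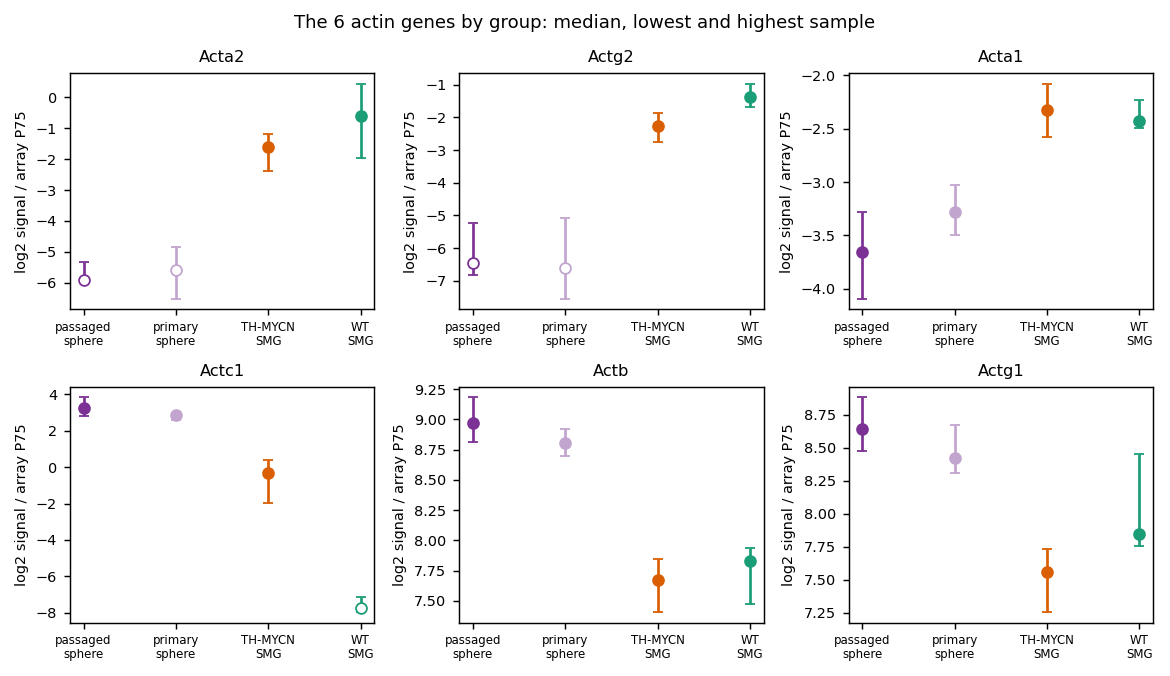
Median (point), lowest and highest sample (bar) of the 6 actin genes in passaged spheres, primary spheres, TH-MYCN SMG and WT SMG (vertical axis, log2 signal relative to the array's 75th percentile, each panel with its own scale). Open points mark groups in which most arrays were not above background. Acta2 and Actg2 are highest in WT SMG, and Actc1 is at background there and highest in spheres.

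Of the close relatives of 2 other members, Pdgfra, the fibroblast-type PDGF receptor, was at least 23.3-fold lower in primary spheres (adjusted p = 5.18e-18, limma). Pdgfra was above background in 0 of 8 primary spheres and was tested only through the SMG, so its call is a description and no support. Jag1 fell by 1.33 (SE 0.19, limma adjusted p = 6.88e-06). Markers of the other stromal cells were counted beside the members. Called lower in primary spheres were 7 of 7 fibroblast, 7 of 7 glial, 7 of 7 macrophage, 4 of 4 erythroid and 7 of 8 endothelial markers. Of all genes tested, 32.9% were called lower. Markers above background in fewer than 4 primary spheres, such as Dcn, Tyrobp and Cldn5, were tested only through the SMG. These counts are thus a description and no support. The mean level over the endothelial list was -5.42 to -4.51 in primary spheres and -2.24 to -1.43 in TH-MYCN SMG. Over the fibroblast list it was -6.14 to -2.51 in primary spheres and 3.70 to 4.02 in TH-MYCN SMG, with 1 to 6 of its 7 genes above background in a sphere. Of the endothelial genes Cldn5, Cdh5 and Tie1 were above background in 0 of 8 primary spheres and 8 of 8 TH-MYCN SMG. Pecam1 and Esam were above background on 8 of 8 arrays of both groups and were called lower. Kdr was called higher on its brighter probe (means of 2.19 in primary spheres and 0.85 in TH-MYCN SMG), while its dimmer probe was above background in 0 of 8 primary spheres and 8 of 8 TH-MYCN SMG. The part of these lists in the members' falls was not tested.

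Passaged spheres were last set against primary spheres, which asks whether the genes still found after 8 days stayed over 5 passages. The primary spheres are those of the comparison above. Only 5 members could be tested, Rgs5, Pdgfrb, Notch3, Mcam and Tagln, and 2 of them were called lower. Of all 14150 genes tested, 6.54% were called lower and 5.17% higher (11.7% in all). Rgs5 was at -4.85, -5.63, -5.96 and -6.03 in the 4 passaged cultures and at -3.59 to -2.68 in primary spheres, with a fitted fall of 2.50 (SE 0.22, limma adjusted p = 0.000106). It was above background on 1 of 8 passaged arrays and on 8 of 8 primary sphere arrays, the 1 being an array of culture 1, which read -4.06 where the other array of that culture read -5.64. Pdgfrb was at -5.59, -5.02, -4.90 and -4.82 in passaged cultures and at -4.47 to -2.16 in primary spheres, above background on 0 of 8 and 8 of 8 arrays. Pdgfrb was lower in passaged spheres by at least 2.87-fold (adjusted p = 0.00357, limma). Rgs5 and Pdgfrb passed the filter on dim probes only through the primary spheres, where they are high. Their calls, the count of 2 and the calls in the fits below are therefore a description and no support. Neither gene's groups overlapped, which was so for 4.52% of all genes in the lower direction and 4.66% in the higher.

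Both falls were called within slide 3 (Rgs5 -2.90, Pdgfrb -2.45) and within slide 4 (-2.10 and -1.60), and in each fit without 1 culture. With normexp the fall of Rgs5 was smaller (-0.54, limma adjusted p = 0.00517) and that of Pdgfrb was not called (-0.48, adjusted p = 0.0797).

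The other 3 members did not pass. Notch3 was at -3.75, -4.57, -2.94 and -3.66 in passaged cultures, above background on all 8 arrays, and at -3.35 to -2.72 in primary spheres, a difference of -0.59 (SE 0.23, limma adjusted p = 0.113). It was called without passaged culture 3 (-0.85, limma adjusted p = 0.0154), so that 1 culture decides that call. Tagln was at 1.05, 0.73, 1.33 and 0.84 in passaged cultures and at -0.095 to 1.99 in primary spheres (0.17, SE 0.29, limma adjusted p = 0.738), with 0.36 within slide 3 and -0.022 within slide 4. The brighter Mcam probe was at 5.17, 5.02, 4.98 and 5.05 in passaged cultures and at 4.63 to 5.19 in primary spheres (0.17, SE 0.097, limma adjusted p = 0.274), and the dimmer probe differed by -0.073 (SE 0.17).

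Acta2, Actg2, Myh11, Cnn1 and Des were not tested between the kinds of sphere because too few samples were above background. In passaged spheres they were above background on 0 of 8 arrays each, apart from 1 array of culture 4 for Actg2, which read -3.76 where the other array of that culture read -6.71.

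Of 12 other pericyte genes tested, 2 were called lower in passaged spheres and 0 higher (median -0.012). For this and the counts below, 6.54% of all genes tested were called lower and 5.17% higher. Cspg4 was above background on 0 of 8 passaged arrays and 7 of 8 primary sphere arrays and was at least 2.48-fold lower (adjusted p = 0.0122, limma). Ndufa4l2, a mitochondrial protein of pericytes, fell by 1.45 (SE 0.25, limma adjusted p = 0.00495). Of 22 other smooth muscle genes, 2 were called higher and 4 lower (median 0.070). The largest differences called were in Itga8, an integrin subunit, with means of -6.58 in passaged and -4.94 in primary spheres but no bound above 1-fold (limma adjusted p = 0.000876), in Pcp4l1, lower by at least 1.53-fold (0.0141), and in Sncg, which fell by 1.25 (SE 0.27, adjusted p = 0.0148). Myh10, a non-muscle myosin, was the 1 of 17 family relatives called, higher by 0.44 (SE 0.11, limma adjusted p = 0.0245). That is 5.88% of the relatives tested, near the 5.17% of all genes. The endothelial list, with a mean of -5.05 to -4.46 in passaged spheres and -5.42 to -4.51 in primary spheres, had 0 of 3 tested genes called. Of the glial list, Fabp7, a fatty acid binding protein of glia, was at least 27.0-fold lower in passaged spheres (adjusted p = 0.00111, limma). Cspg4, Ndufa4l2, Itga8, Pcp4l1 and Fabp7 were above background in fewer than 4 passaged cultures. They passed the filter only through the primary spheres, where they are high. Their calls, and the counts of lower genes that hold them, are a description and no support.

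By level, the 4 groups thus stand in different orders for different members. For Pdgfrb and Rgs5 the fitted order, low to high, was passaged sphere, primary sphere, TH-MYCN SMG and WT SMG. From primary spheres upward each neighbour differed at the call threshold, with the limits on Rgs5 in the ganglion given above. For the step between passaged and primary spheres both genes passed the filter only through the primary spheres. Their calls at that step are a description and no support. In passaged spheres Pdgfrb was above background on 0 of 8 arrays and Rgs5 on 1 of 8. With normexp the step of Pdgfrb from primary to passaged spheres was not called (-0.48, limma adjusted p = 0.0797). For Notch3 both kinds of sphere, which were not told apart, stood below WT SMG, and TH-MYCN SMG stood highest. For Acta2 and Actg2 both kinds of sphere were at or near background and not ordered, TH-MYCN SMG stood above them and WT SMG was highest. For Myh11 WT SMG stood above TH-MYCN SMG, and the spheres, with 0 arrays above background and a sign that turned with normexp (0.44), were not placed. Mean levels of Tagln were lowest in the spheres, then TH-MYCN SMG and WT SMG. Its step from TH-MYCN SMG to primary spheres was not called with the spheres of slide 3 alone, nor in the joint fit of all 4 groups. The brighter Mcam probe stood in 3 groups whose neighbours by comparison were not told apart, below WT SMG.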

How the data were processed

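RNA of 8 WT SMG, 8 TH-MYCN SMG, 8 primary sphere and 4 passaged sphere cultures was labelled with Cy3 for one-colour Agilent arrays. Per the file headers, spots were read with Agilent Feature Extraction 11.5.1.1, and the processed spot intensity deposited by the authors had the background of its own array subtracted but was not scaled across arrays. Agilent's flags for above background, saturation and outliers were deposited beside it, as were median spot and background intensities. The authors also deposited a table of log2 values, of which 99.86% lie within 0.05 of log2 signal scaled to the 75th percentile and shifted by 1 constant for each probe, so that its scale and direction are known and the reference of its centring is not. Its column medians were 0.15 to 0.51 on passaged sphere arrays, -0.079 to 0.074 on primary sphere arrays, -0.39 to -0.11 on TH-MYCN SMG arrays and -0.48 to -0.017 on WT SMG arrays. The labels give 40 or 200 ng of RNA without saying which sample had which.

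Accessions of probes, versions removed, were looked up in RefSeq's gene table (GRCm38.p6), which named 27235 of 55681 probes. Control and outlier spots were left out, and spots of a probe were averaged. Each comparison used the probes above background in at least 4 samples (a passaged culture on both arrays), and the brightest of these stood for its gene. Each comparison was fitted on its own 2 groups with limma 3.58.1 in R 4.3.3 (lmFit, eBayes, two-sided). The fit was tested on simulated data. Nothing in the labels says more on replicates than that they are biological, so p-values measure the spread between these samples, and the number of arrays limits the precision. Replicate numbers were not treated as pairs. Whether they pair samples is not stated in the labels and was not settled here. Deviations of same-numbered samples correlated above 0.1 in 7 of 8, 1 of 8 and 2 of 4 pairs of the 3 comparisons. The members and lists were chosen with earlier results of these data known. All members are named, and of each other list up to 3 called genes with the largest difference, besides relatives set beside a member. Alternatives were normexp background, quantile normalization, a shift of the tested group's arrays by the median difference of all genes, and the authors' table. Normexp was run on median spot and background intensities with an offset of 50, before scaling to the 75th percentile of each array. Further ones were other filters, the mean over probes, a joint fit, replicate and slide blocks, single slides and fits without 1 sample. One result for a glial marker is not reported here.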

Additional observations from a re-analysis of the deposited data

Results flagged for a closer look

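In 5 of 44 sets of samples (11 probes in 4 groups) 1 sample had a gap to its neighbour that passed Dixon's 95% value, and chance flags about 1 in 20 sets. Tagln in WT SMG 1 was at 5.26, with the next WT ganglion at 2.72. The brighter Mcam probe in TH-MYCN SMG 4 was at 5.21, with the next at 5.00. Notch3 in primary sphere 6 was at -2.72, with the next at -3.07. Myh11 in primary sphere 5 (-6.99, next -7.49) and Acta2 in passaged culture 3 (-5.34, next -5.88) stood apart on signals not above background.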

How the results depend on the processing

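Of 24 results for single members, 12 kept their direction and their side of the threshold in every alternative other than leaving out a sample. The number of members called in TH-MYCN SMG against WT SMG was 9, and 5 within slide 2. In passaged against primary spheres it was 2, and 1 with normexp. Without 1 sample these counts were 8 to 9 and 2 to 3, and in primary spheres against TH-MYCN SMG 8 in every such fit, but 6 to 9 over the other alternatives. With normexp, Cnn1 (0.30) and Myh11 (0.44) turned higher in primary spheres, and the cause was not tested. The replicate block treats the numbers as pairs, which the labels do not state. It gave 8, 8 and 2 members called in the 3 comparisons, among 70.9%, 83.4% and 6.73% of all genes. Rgs5 was lost there in TH-MYCN SMG against WT SMG (limma adjusted p = 0.0516). A sample was most like its own number in 4 of 8, 1 of 8 and 3 of 4 cases. Calls over all genes moved more. In TH-MYCN SMG against WT SMG, 33.4% of the calls were higher, and 55.5% (5165 higher, 4149 lower) with arrays shifted to the median gene. In primary spheres against TH-MYCN SMG it was 60.4%, and 48.3% with that shift. In passaged against primary spheres, 731 were higher and 925 lower, with 4091 and 1195 without a filter on dim probes, 480 and 505 with normexp, 221 and 731 with the replicate block, 272 and 760 within slide 3, 489 and 500 within slide 4, 507 and 1055 after quantile normalization and 319 and 934 in the joint fit. Without passaged culture 2 the share of all genes called there was 5.73% and without culture 4 it was 5.55%, against 11.7%. Dim members (Acta2, Actg2, Myh11, Cnn1 and Des in spheres) are limited by signal over background.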
